A study of Homo sapiens with 4 samples.

Results

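Long noncoding RNAs (lncRNAs) are transcripts without a long translated reading frame, and 9 of the most studied ones were examined in K562 cells before and after hemin treatment: MALAT1, NEAT1, NORAD, PVT1, OIP5-AS1, KCNQ1OT1, MEG3, H19 and TUG1. The 9 genes were chosen by name and matched by symbol to the expression tables, which hold 61498 genes. GENCODE 44 types 17668 of these genes as lncRNA, including 8 of the 9, while it types TUG1 as protein coding. K562 is a human erythroleukaemia line that hemin, the iron-containing porphyrin of haemoglobin, can drive toward the erythroid state. Poly(A)+ RNA was sequenced in 2 libraries of untreated cells and 2 libraries of cells kept in 50 µM hemin for 108 h. The sources used here do not say whether the libraries of a condition came from separate cultures, so the p-values measure only the spread between these libraries, which may be technical.

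A lncRNA can act as a scaffold for a nuclear body, as a decoy that binds proteins or microRNAs, or through its transcription along a chromosome, where it may silence neighbouring genes. MALAT1 collects in nuclear speckles, which store splicing factors, and NEAT1 is the scaffold of paraspeckles. NORAD binds PUMILIO proteins, which shorten the life of their target mRNAs, and OIP5-AS1 carries a site for the microRNA miR-7. KCNQ1OT1, MEG3 and H19 are imprinted, being transcribed from the copy of a single parent. PVT1 lies beside the oncogene MYC, and TUG1 has been studied for gene silencing.

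The expected counts summed to between 7455447 and 8241534 per library, with 12.75% to 13.64% of them on the mitochondrial genome. All 14 erythroid markers examined were above 3 counts in every library, and their summed level was 6455 and 6672 TPM (transcripts per 1000000 transcripts, a level per length) in the untreated libraries and 8585 and 8056 TPM after hemin. The 5 monocyte markers summed to at most 0.74 TPM, the 5 B cell markers to at most 2.18 TPM and the 5 T cell markers to at most 1.95 TPM. CD3E, CD2, MS4A1, PAX5, S100A9 and PDGFRA were at 0 in every library. The 5 stromal markers summed to 6.03 and 7.32 TPM in the untreated libraries and to 4.96 and 4.83 TPM after hemin, mainly through COL1A2, with 108, 121, 72 and 88 counts in untreated replicates 1 and 2 and hemin replicates 1 and 2. The part of the erythroid and stromal markers in the results for the lncRNAs was not tested. In libraries made from many cells, a change in the share of cells that hold a transcript and a change in its amount per cell cannot be told apart.

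Several of these RNAs are recognised by short sequences, which are shown here because they define how the RNA is processed or what it binds. MALAT1 and the long form of NEAT1 end without a poly(A) tail, after RNase P has cut before a tRNA-like fold, and a genomically encoded A-rich tract closes their ends. Such ends bear on the measurement, since these libraries were made from poly(A)+ RNA, and how they affected the counts of MALAT1 and NEAT1 was not tested. The tracts are given in capitals, 5′ to 3′ in the sense of the RNA, from the plus strand of GRCh38 at chr11:65506090-65506119 for MALAT1 and chr11:65445511-65445540 for NEAT1, where the second is the annotated end of the gene.
MALAT1: tctagcttAAAAAAAAAAAAAGCAAAAgat
NEAT1: ctgtgaaagagtgagcaggAAAAAGCAAAA
Both hold the word AAAAAGCAAAA, which was found on the sense strand in 403 of 62700 genes' longest transcripts, or 0.64%.

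NORAD held 15 PUMILIO recognition words of the form TGTANATA in its 5401 bases, where N is any base. Among the 2103 longest transcripts of 5000 to 6000 bases, 44.7% held at least 1 such word, the median was 0, and 3 transcripts, NORAD among them, held 15 or more. In 3 places a pair of words in NORAD starts 9 bases apart. These pairs are shown with the words in capitals, from the minus strand of GRCh38 at chr20:36049497-36049525, chr20:36048300-36048328 and chr20:36047664-36047692.
NORAD pair 1: tatctgTGTATATAgTGTACATAaaggac
NORAD pair 2: ctatacTGTATATAtTGTATATAtaacgg
NORAD pair 3: gtgctgTGTATATAgTGTATATAagcgga
The word matches are a description of the sequence, and binding was not measured in these libraries.

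The miR-7 site of OIP5-AS1 lies on the plus strand at chr15:41300572-41300601 of GRCh38. Its bases in capitals are complementary to 8 bases at the 5′ end and to 14 bases at the 3′ end of miR-7-5p, with 4 bases between. The mature miRNA is given from RefSeq (GRCh38.p14) with its seed, bases 2 to 8, in capitals.
OIP5-AS1 site: agAACAACAAAATCACcaatGTCTTCCAtt
hsa-miR-7-5p: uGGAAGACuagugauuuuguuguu
H19 and MEG3 are hosts of microRNAs, whose RefSeq sequences are given in the same way and which share no seed.
hsa-miR-675-5p, in H19: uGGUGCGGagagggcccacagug
hsa-miR-675-3p, in H19: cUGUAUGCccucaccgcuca
hsa-miR-770-5p, in MEG3: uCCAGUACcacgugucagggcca
The rows of the hosted genes MIR675 and MIR770 were at 0 counts in all 4 libraries, and a count of 0 allows up to 3 counts. These libraries are of poly(A)+ RNA, so they do not measure the mature microRNAs.

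The levels of the 9 lncRNAs in untreated cells ran from 0.615 to 6742 TPM. On this scale, MALAT1 was at 6742 ± 342 in untreated cells (SD, n = 2) and at 5702 ± 298 after hemin (SD, n = 2), which placed it 12th and 16th of all genes. It took 1.17% and 1.10% of all counts in the untreated libraries and 0.998% and 0.890% after hemin. NEAT1 followed at 226 ± 33.3 TPM in untreated cells and 244 ± 4.79 TPM after hemin, and was 16th among the genes typed lncRNA in both conditions.

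TUG1, MEG3, NORAD, PVT1 and OIP5-AS1 formed a middle group. In untreated cells their TPM were 72.6 ± 0.877 for TUG1, 69.4 ± 9.97 for MEG3, 56.8 ± 0.431 for NORAD, 50.5 ± 2.16 for PVT1 and 34.1 ± 0.191 for OIP5-AS1 (SD, n = 2 for each). TUG1 and MEG3 did not differ beyond their spread in untreated cells, since the value of MEG3 was 76.5 TPM in replicate 1 and 62.4 TPM in replicate 2. The other neighbours in the order did not overlap between their pairs of libraries. After hemin the order in this group was TUG1 at 76.5 ± 1.72 TPM, NORAD at 65.0 ± 0.113 TPM, PVT1 at 54.0 ± 1.16 TPM, MEG3 at 43.9 ± 0.474 TPM and OIP5-AS1 at 38.2 ± 1.15 TPM (SD, n = 2 for each), so that MEG3 moved from the second to the fourth place among these 5.

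KCNQ1OT1 and H19 were the lowest. KCNQ1OT1, an unspliced transcript of 91619 bases of effective length, was at 1.52 ± 0.361 TPM in untreated cells and 1.32 ± 0.0283 TPM after hemin (SD, n = 2), although it held 631 to 914 counts per library. H19 was at 0.615 ± 0.134 TPM in untreated cells and at 1.58 ± 0.141 TPM after hemin (SD, n = 2), on at most 11 counts. With RSEM's posterior mean TPM, a second estimate in the same files, PVT1 stood 3rd at 76.4 TPM in untreated cells and 76.7 TPM after hemin. By that estimate H19 was at 2.68 TPM in untreated cells and 3.51 TPM after hemin, and KCNQ1OT1 at 1.37 and 1.19 TPM. The order in the middle group, and that of KCNQ1OT1 and H19 in untreated cells, thus depends on which of the estimates is used.

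**Figure D1:**
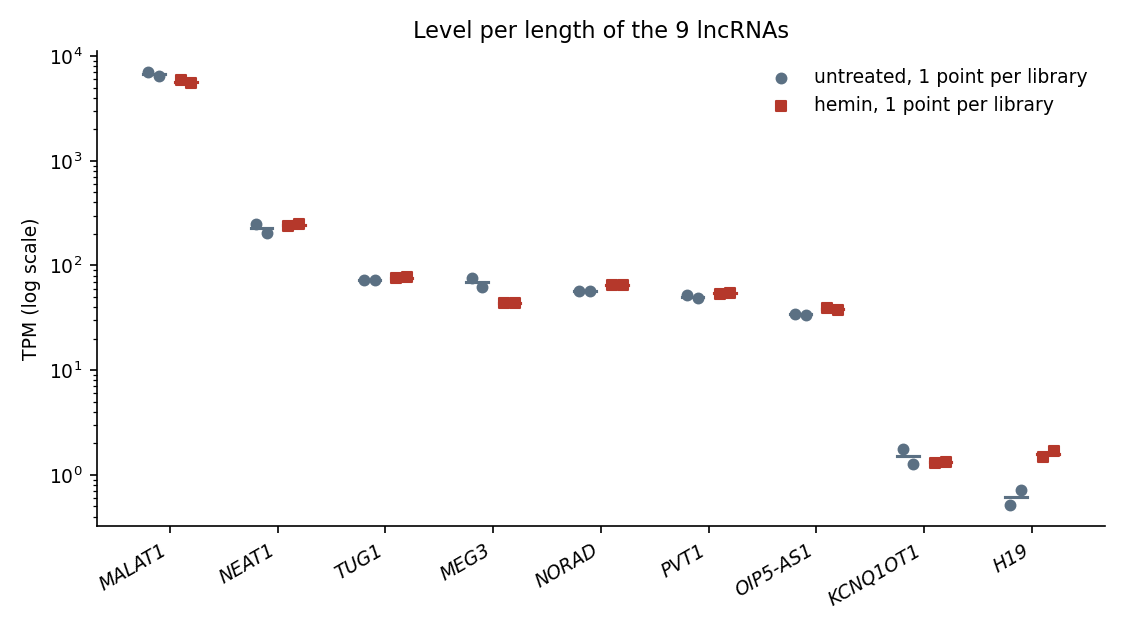
Level of each lncRNA in TPM on a log axis, with 1 point per library (circles untreated, squares hemin) and a short line at the mean of each condition. MALAT1 lies highest, TUG1, MEG3, NORAD, PVT1 and OIP5-AS1 lie between 33.9 and 77.7 TPM, and KCNQ1OT1 and H19 lie lowest.

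The changes of these lncRNAs after hemin were small. In edgeR's quasi-likelihood test, fitted over 14458 genes (p adjusted by Benjamini-Hochberg, threshold 0.05), MEG3 and MALAT1 fell and NORAD rose, while NEAT1, PVT1, OIP5-AS1, KCNQ1OT1 and TUG1 did not pass. That is 1 of 8 tested lncRNAs higher and 2 of 8 lower, against 7.00% of all tested genes higher and 7.14% lower, or 14.1% in either direction. Among the 1773 tested genes typed lncRNA, 1.92% were higher and 3.33% lower, or 5.25% in either direction. Of the 7 lncRNAs with a mean count of at least 500, 1 rose and 2 fell, where 19.4% of the 3370 tested genes in that range rose and 9.53% fell. With 8 lncRNAs tested, these shares rest on 3 genes. The median size of the log2 fold change, whatever its sign, was 0.166 for the 8 lncRNAs and 0.17 for all genes tested. That median was 0.26 for the tested genes typed lncRNA and 0.119 for the tested genes with a mean count of at least 500.

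MEG3, an imprinted lncRNA studied for p53 signalling and Polycomb recruitment, showed the largest change of the 8. It had 1290 and 1107 counts in untreated replicates 1 and 2 and 783 and 793 counts in hemin replicates 1 and 2. Both hemin libraries were below both untreated libraries, at 106 and 98.3 against 163 and 148 scaled counts per 1000000 (CPM). The log2 fold change was -0.61 ± 0.06 (SE, n = 2 per condition; 95% interval -0.75 to -0.47), a fold of 0.655, with an edgeR adjusted p of 5.8e-04. The gene was 86th of all tested genes by p. It kept an edgeR adjusted p under the threshold with each library left out, where the log2 fold change lay between -0.68 and -0.54. On log2 TPM with limma, the adjusted p was 0.0864 with a pseudocount of 1 and 0.0936 with 0.1.

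MALAT1 fell by less. Its counts were 91175 and 82043 in untreated replicates 1 and 2 and 74988 and 73324 in hemin replicates 1 and 2. After scaling these were 11528 and 10955 CPM against 10111 and 9089 CPM, and the groups did not overlap. The log2 fold change was -0.23 ± 0.05 (SE, n = 2 per condition; 95% interval -0.34 to -0.12), a fold of 0.854, with an edgeR adjusted p of 0.0165. The call was lost without untreated replicate 1, at -0.19 with an edgeR adjusted p of 0.0761, and without hemin replicate 2 the value was -0.15 with an edgeR adjusted p of 0.0106. With limma on log2 TPM the adjusted p was 0.138 with either pseudocount. RSEM's posterior SD of its count was at most 0.00568% of the count, so the division of reads with other genes adds little to this error.

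NORAD, a PUMILIO decoy that protects the stability of the genome, was the lncRNA that rose. It had 1697 and 1655 counts in untreated replicates 1 and 2 and 1880 and 2060 counts in hemin replicates 1 and 2. The hemin libraries, at 253 and 255 CPM, were above the untreated ones, at 215 and 221 CPM. The log2 fold change was 0.22 ± 0.04 (SE, n = 2 per condition; 95% interval 0.13 to 0.32), a fold of 1.17, with an edgeR adjusted p of 0.00887. The call was lost without untreated replicate 1, where the log2 fold change was 0.20 with an edgeR adjusted p of 0.0556. With limma on log2 TPM the adjusted p was 0.249 with a pseudocount of 1 and 0.255 with 0.1. NORAD has a single annotated isoform, so its counts and its TPM moved alike.

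**Figure D2:**
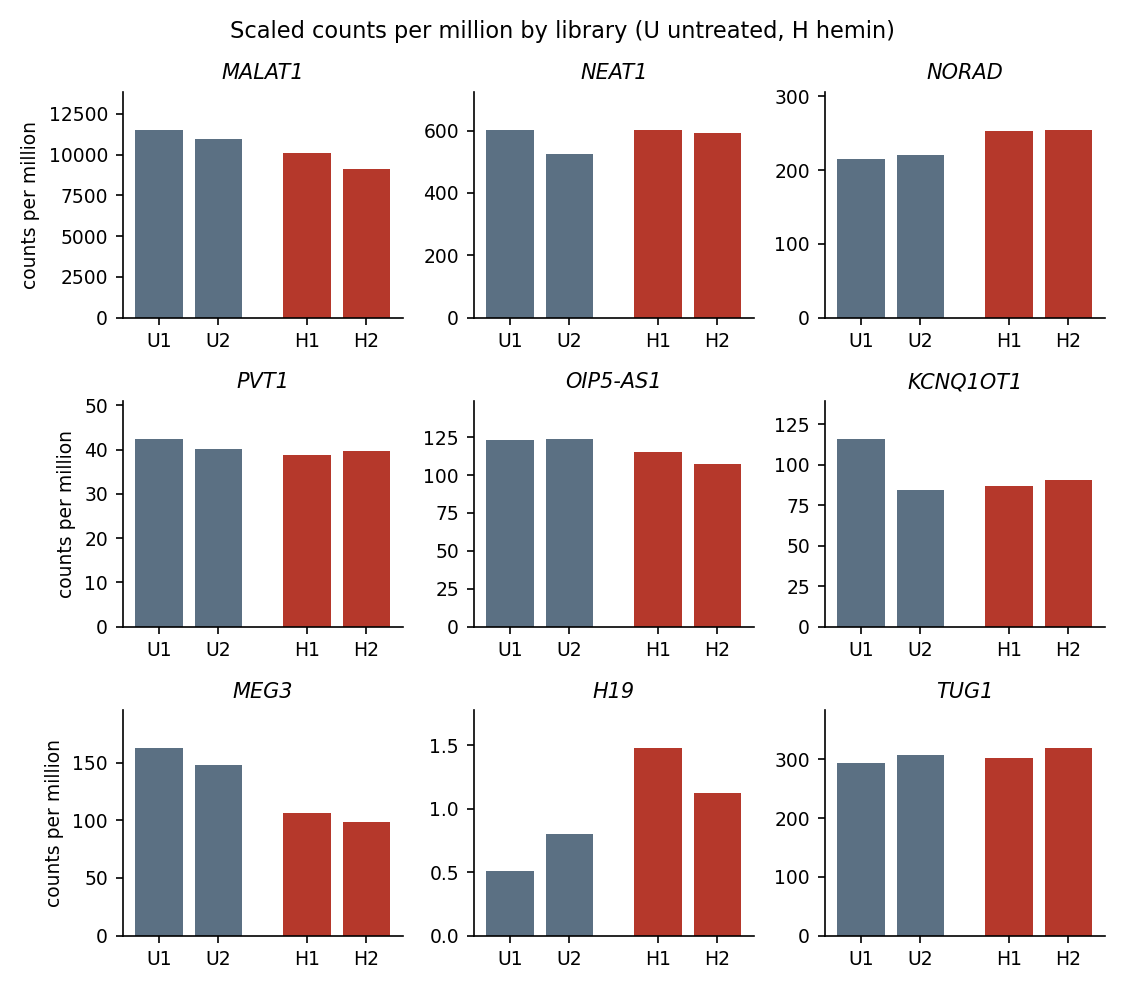
CPM of each lncRNA in untreated replicates 1 and 2 (U1, U2) and hemin replicates 1 and 2 (H1, H2), with every axis starting at 0. The hemin libraries are lower than both untreated ones for MALAT1, MEG3, OIP5-AS1 and PVT1 and higher for NORAD and H19, while 29.3% of all tested genes were lower and 28.1% higher without overlap, and for KCNQ1OT1 untreated replicate 1 stands above the other 3 libraries.

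NEAT1, the paraspeckle scaffold, had 4769 and 3933 counts in the untreated libraries and 4470 and 4783 counts in the hemin libraries. Its CPM were 603 and 525 against 603 and 593, so the conditions overlapped. The log2 fold change was 0.08, with a 95% interval of -0.05 to 0.22 and an edgeR adjusted p of 0.403. Without untreated replicate 2 it was -0.0093 with an edgeR adjusted p of 0.934, and without untreated replicate 1 it was 0.19 with an edgeR adjusted p of 0.0568, so the value rests on which untreated library it is set against.

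TUG1 had 293 and 308 CPM in untreated cells and 303 and 320 CPM after hemin, so the conditions overlapped. The interval of its log2 fold change ran from -0.05 to 0.16 around 0.05, with an edgeR adjusted p of 0.507. KCNQ1OT1, which silences neighbouring imprinted genes along the paternal chromosome, was at 116 CPM in untreated replicate 1, at 84.3 CPM in untreated replicate 2 and at 86.6 and 90.6 CPM after hemin. The untreated libraries thus differed from each other 1.37-fold. The log2 fold change was -0.18, with a 95% interval of -0.45 to 0.09 and an edgeR adjusted p of 0.375. It became 0.073 without untreated replicate 1 (edgeR adjusted p = 0.597) and -0.38 without untreated replicate 2 (edgeR adjusted p = 0.0182), so the untreated library chosen sets its sign and its call. KCNQ1, the gene in which KCNQ1OT1 lies on the opposite strand, had at most 1 count in any library. The RSEM options given in the study's methods name no strand setting, so reads of a transcript and of its antisense partner could not be told apart.

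H19, an imprinted RNA of fetal tissues, had 4 and 6 counts in the untreated libraries and 11 and 9 counts after hemin, too few to pass the edgeR filter on low counts. Summed over the libraries of a condition, 20 against 10 counts gave a ratio of 1.94 at equal depth, with an exact 95% binomial interval of 0.865 to 4.63 that covers counting error only. At this depth a difference of the observed size was not detectable. Without the filter, its log2 fold change was 0.99 with an edgeR adjusted p of 0.479. H19 passed the filter with 1 library left out in 3 of 4 cases, where its log2 fold change was 0.68 to 1.33 with edgeR adjusted p of 0.388 to 0.653.

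For OIP5-AS1 and PVT1 the estimates had opposite signs on the scales of counts and TPM, and none passed the test. OIP5-AS1, also studied as a sponge of the protein HuR, had 970 and 929 counts in the untreated libraries and 850 and 865 counts in the hemin libraries. These were 123 and 124 CPM against 115 and 107 CPM, without overlap, and the log2 fold change was -0.15 (95% interval -0.27 to -0.03) with an edgeR adjusted p of 0.0851. The TPM were higher after hemin, at 39.1 and 37.4 against 34.2 and 33.9, and limma on log2(TPM + 1) gave 0.16 with an adjusted p of 0.392. TPM divides the counts by the effective length, the mean length of the annotated isoforms weighted by their estimated shares, and for OIP5-AS1 that length was 5050 and 5059 bases in the untreated libraries and 4032 and 3897 bases after hemin. It decreased by 21.6%, with no overlap between the conditions.

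For PVT1 neither difference passed. It had 336 and 301 counts in the untreated libraries and 287 and 321 counts after hemin, which gave 42.5 and 40.2 CPM against 38.7 and 39.8 CPM and a log2 fold change of -0.08 (95% interval -0.25 to 0.10) with an edgeR adjusted p of 0.576. The TPM were 52.0 and 49.0 in untreated cells and 53.2 and 54.8 after hemin, and limma gave 0.10 with an adjusted p of 0.58. The effective length of its 183 isoforms was 1151 and 1135 bases in the untreated libraries and 998 and 986 bases after hemin, and decreased by 13.2%. The isoform shares behind these lengths were not analysed here, and with about 300 counts over 183 isoforms they rest on few reads each.

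Of the 7 lncRNAs with several isoforms, 4 had a shorter effective length in both hemin libraries than in either untreated library. They were OIP5-AS1, PVT1, TUG1 (5726 and 5814 bases untreated against 5523 and 5591 bases after hemin) and H19 (1381 and 1562 against 1374 and 902 bases), whose lengths rest on at most 11 counts per library. The same held for 17.4% of the 12403 tested genes with several isoforms, and another 17.4% were longer without overlap. A shortening without overlap as large as that of OIP5-AS1 was present in 2.78% of these genes, and as large as that of PVT1 in 6.35%. For MEG3, MALAT1 and NEAT1 the lengths of the conditions overlapped.

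**Figure D3:**
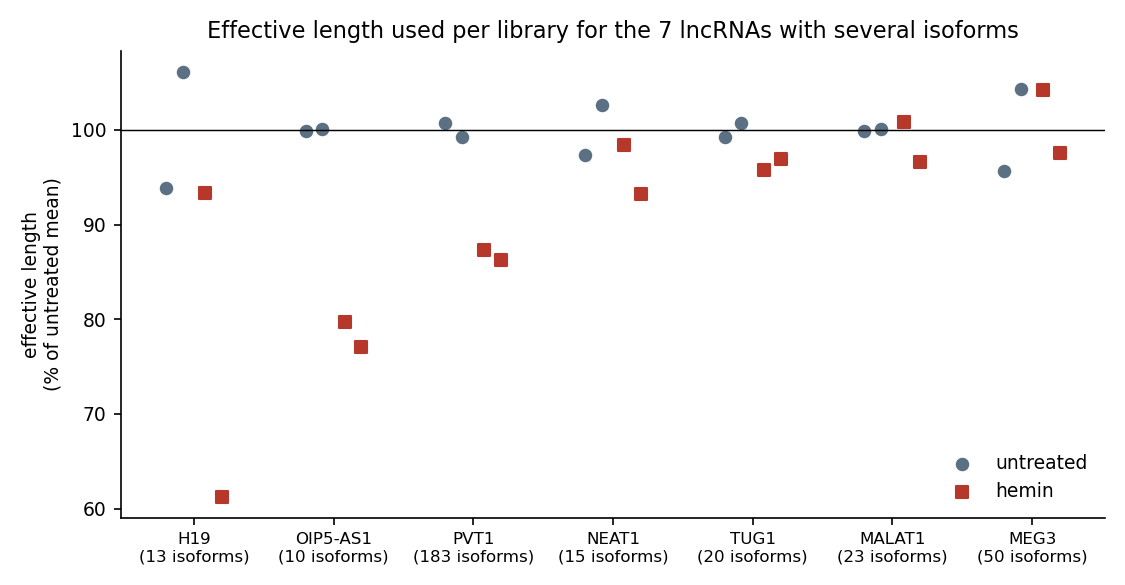
Effective length of the 7 lncRNAs with several isoforms in each library, in percent of the mean of the untreated libraries (circles untreated, squares hemin). Both hemin libraries lie below both untreated ones for OIP5-AS1, PVT1, TUG1 and H19, and the lowest point is hemin replicate 2 of H19, which rests on 9 counts. The axis does not start at 0.

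**Figure D4:**
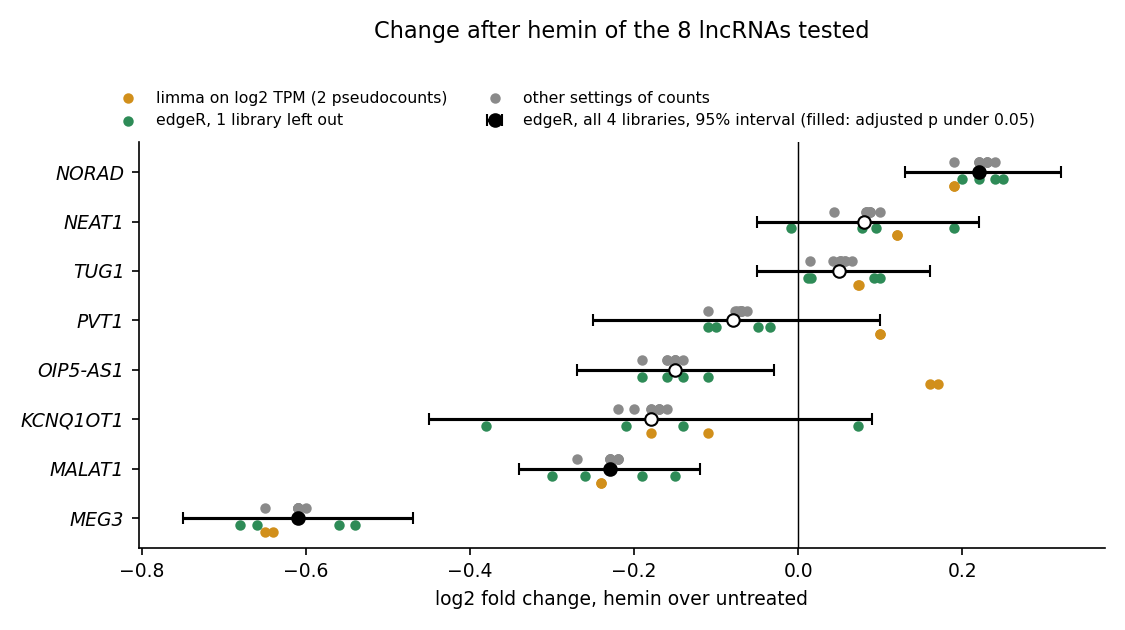
Log2 fold change (hemin over untreated) of the 8 lncRNAs tested, as edgeR's estimate with its 95% interval (black) and under other settings: limma on log2 TPM (orange), edgeR with 1 library left out (green) and other settings of the counts (grey). MEG3, MALAT1 and NORAD keep their direction in all settings shown, whereas the orange points of OIP5-AS1 and PVT1 lie on the other side of 0 from the black ones.

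Genes of proteins linked to the lncRNAs were then counted by list, the lists having been chosen with earlier results of these data known. Of 20 paraspeckle proteins, which assemble on NEAT1, 14 rose and 0 fell in edgeR's quasi-likelihood test. At an unadjusted p under 0.05, 17 were higher and 0 lower, against 14.8% and 14.6% of all genes tested. DESeq2 called 11 higher and 0 lower, against 5.05% and 4.33% of the 11655 genes to which it gave an adjusted p. The smallest called change was that of HNRNPR, at 0.18 on the log2 scale with an edgeR adjusted p of 0.0418. The median log2 fold change of the list was 0.22, against -0.005 for all genes tested. Against the 19.4% higher and 9.53% lower among genes with a mean count of at least 500, 13 of the 19 paraspeckle proteins in that range rose and 0 fell. The count over the whole list was 9 without untreated replicate 1. HNRNPR passed without untreated replicate 2 and with no other library left out.

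Of 19 nuclear speckle proteins, the body where MALAT1 collects, 11 rose and 0 fell by edgeR, as did 11 and 0 at an unadjusted p under 0.05 and 10 and 0 by DESeq2. BCLAF1, a factor of splicing and transcription, showed the largest change at 0.55 with an edgeR adjusted p of 2.1e-04. Its counts were 1148 and 1063 in untreated cells and 1540 and 1721 after hemin, so the groups did not overlap. RNPS1, a part of the exon junction complex, showed the smallest called change at 0.15 with an edgeR adjusted p of 0.0402. BCLAF1 passed with each library left out, and RNPS1 lost its call each time. Of the 18 with a mean count of at least 500, 11 rose, against 19.4% of all genes in that range. The median of the list was 0.18, and the count was 7 without untreated replicate 1.

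The 12 subunits of RNase P and genes of RNase Z, the enzymes that shape the end of MALAT1, gave no call by edgeR or DESeq2. At an unadjusted p under 0.05, 3 of them were higher and 0 lower, against 14.8% and 14.6% of all genes. The median log2 fold change of this list was 0.18, and 1 of the 12 had a mean count of at least 500. Of 18 genes of the nuclear RNA exosome and its adaptors, which degrade nuclear transcripts, 3 rose and 0 fell by edgeR, against 7.00% and 7.14% of all genes. At an unadjusted p under 0.05, 8 were higher and 0 lower, against 14.8% and 14.6% of all genes. DESeq2 called 2 higher and 0 lower, against 5.05% and 4.33% of the genes to which it gave an adjusted p. Of the 8 exosome and adaptor genes with a mean count of at least 500, 1 rose by edgeR, against 19.4% of all genes in that range. The 3 edgeR calls were the exosome subunits EXOSC3, at 0.38 with an edgeR adjusted p of 0.0201, and EXOSC9, at 0.41 with an edgeR adjusted p of 0.0349, and the poly(A)-binding protein PABPN1, at 0.28 with an edgeR adjusted p of 0.0123. None of the 3 passed without untreated replicate 1, and EXOSC3 also lost its call without untreated replicate 2 or hemin replicate 1, as did EXOSC9 without hemin replicate 2.

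Among 7 proteins known to bind NORAD, 4 rose and 0 fell by edgeR and by DESeq2, while 7 were higher and 0 lower at an unadjusted p under 0.05, against 14.8% and 14.6% of all genes. All 7 have a mean count of at least 500, where 19.4% of genes rose by edgeR. The edgeR calls were PRPF19 at 0.32 (adjusted p = 0.00435) and CDC5L at 0.30 (adjusted p = 0.012), which belong to a complex that activates the spliceosome, and the RNA-binding proteins KHDRBS1 at 0.22 (adjusted p = 0.00694) and RBMX at 0.13 (adjusted p = 0.0469). The call of CDC5L was lost without untreated replicate 2, and that of RBMX with each of the 4 libraries left out in turn. PUM2, a PUMILIO protein named here for its role and not by the rule, did not pass. It had 875 and 941 counts in untreated cells and 994 and 1090 after hemin, a log2 fold change of 0.19 with an edgeR adjusted p of 0.0759, and it passed without untreated replicate 2.

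Of 5 RNA-binding proteins studied with H19 or OIP5-AS1, 3 rose and 0 fell by edgeR and by DESeq2. At an unadjusted p under 0.05, 4 were higher and 0 lower, against 14.8% and 14.6% of all genes tested. All 5 have a mean count of at least 500, where 19.4% of genes rose and 9.53% fell by edgeR. IGF2BP1, which stabilises mRNAs, changed by 0.39 with an edgeR adjusted p of 6.7e-04. KHSRP, which promotes mRNA decay, changed by 0.37 with an edgeR adjusted p of 7.1e-04. ELAVL1, the gene of HuR, changed by 0.23 with an edgeR adjusted p of 0.0134, and lost the call without either untreated library. Of 11 subunits of PRC2, the Polycomb complex that methylates histone H3, RBBP4 alone passed in edgeR, at 0.22 with an adjusted p of 0.00706. By edgeR 7.00% of all tested genes rose and 7.14% fell, so the PRC2 counts at the adjusted threshold are near the shares of all genes. At an unadjusted p under 0.05, 3 were higher and 2 lower, against 14.8% and 14.6% of all genes. With 11 genes tested, these counts rest on few genes.

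**Figure D5:**
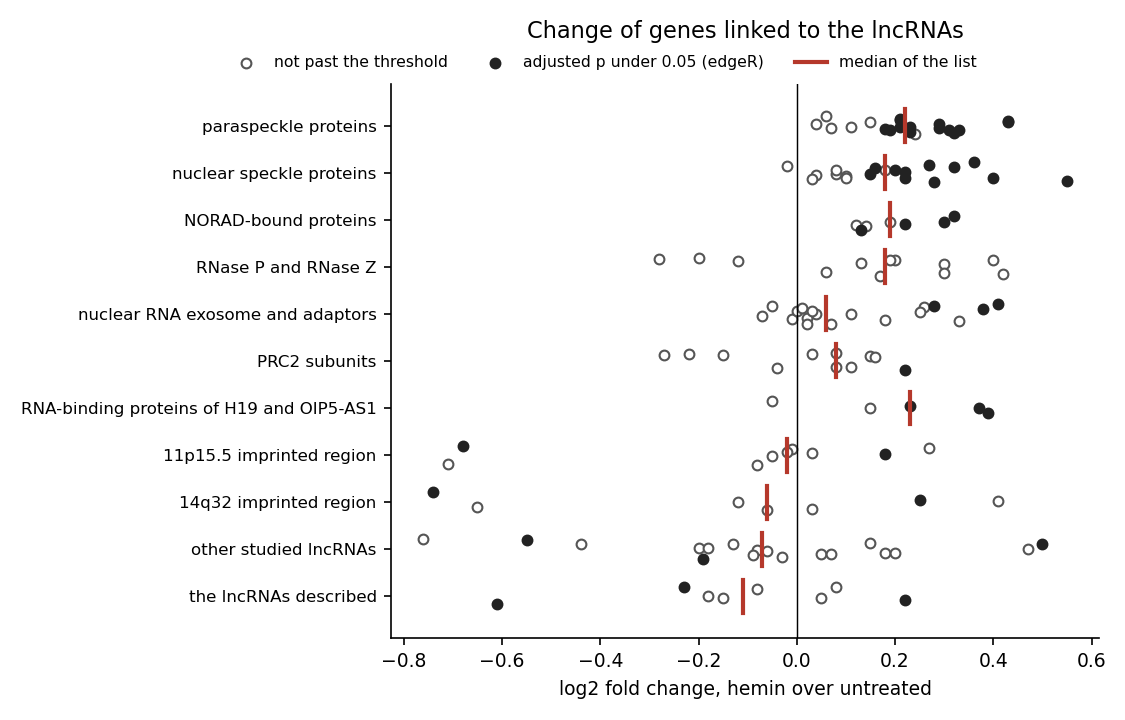
Log2 fold change (hemin over untreated) of each tested gene in the lists linked to the lncRNAs, with genes past the edgeR threshold filled and a red line at the median of each list. The paraspeckle, nuclear speckle and NORAD-bound proteins lie mostly above 0, with medians of 0.22, 0.18 and 0.19, while the 8 lncRNAs have a median of -0.11.

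The chromosomal surroundings of the lncRNAs were examined next. Within 100 kb of the 9 genes, 33 other genes were tested, of which 2 rose and 1 fell by edgeR, where 14.1% of all tested genes were called in either direction, so the count is no result about these surroundings. PVT1 and MYC, the transcription factor gene that lies 51575 bases before it on chromosome 8, gave different calls. MYC had 2730 and 2687 counts in untreated cells and 3412 and 3689 counts after hemin, and both hemin libraries were above both untreated ones. Its log2 fold change was 0.38 ± 0.04 (SE, n = 2 per condition) with an edgeR adjusted p of 6.7e-04, and it passed with each library left out. The difference between MYC and PVT1 was not tested.

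The second gene that rose, ENSG00000278144, is a short RNA annotated inside NEAT1 on the same strand. It had 32 and 17 counts in untreated cells and 44 and 59 counts after hemin, with a log2 fold change of 1.06 and an edgeR adjusted p of 0.0464. RSEM's posterior SD was 23.1% of its count, against at most 0.427% for NEAT1, and the call was lost without untreated replicate 2 and without hemin replicate 2. SMTN, a gene of a smooth muscle protein located 84710 bases from TUG1, fell by 0.31 on the log2 scale with an edgeR adjusted p of 0.0388, and lost this call with each of the 4 libraries left out in turn. The other genes that overlap these lncRNAs and were tested are ENSG00000277599 and ENSG00000278050 inside NEAT1, and OIP5, NUSAP1 and ENSG00000285920 at OIP5-AS1, and they did not pass. OIP5 is transcribed against OIP5-AS1 and had 73 to 84 counts in all libraries.

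MEG3 lies at chr14:100779410-100861031 of GRCh38, on the plus strand, in an imprinted region with the paternally expressed gene DLK1. DLK1, an inhibitor of differentiation in several tissues, had 95 and 78 counts in untreated cells and 45 and 66 counts after hemin. Its log2 fold change was -0.65 with an edgeR adjusted p of 0.0568, and with a library left out the values ran from -0.89 to -0.45, past the threshold without hemin replicate 2. MEG8, the next noncoding gene, had 32 and 45 counts in untreated cells and 38 and 41 counts after hemin, with a log2 fold change of 0.03. Of 7 tested genes of the wider 14q32 region, 1 rose and 1 fell by edgeR, where 7.00% of all tested genes rose and 7.14% fell. With 7 genes tested, these counts are no result about the region. The transporter gene SLC25A29 fell by 0.74 on the log2 scale with an edgeR adjusted p of 0.0261, and the transcription factor gene YY1 rose by 0.25 with an edgeR adjusted p of 0.0273. Neither passed without either untreated library, nor SLC25A29 without hemin replicate 1 or YY1 without hemin replicate 2.

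H19 and KCNQ1OT1 share the imprinted region 11p15.5, where 9 genes were tested. By edgeR 1 of them rose and 1 fell, where 7.00% of all tested genes rose and 7.14% fell. With 9 genes tested, these counts are no result about the region. CDKN1C, a maternally expressed inhibitor of cyclin-dependent kinases that KCNQ1OT1 silences on the paternal copy, had 200 and 173 counts in untreated cells and 97 and 137 counts after hemin. It fell by 0.68 on the log2 scale with an edgeR adjusted p of 0.0117, while KCNQ1OT1 itself did not pass. Without untreated replicate 1 the edgeR adjusted p of CDKN1C was 0.0693. NAP1L4, a histone chaperone gene, rose by 0.18 with an edgeR adjusted p of 0.0473, and lost the call without untreated replicate 1 or 2 or hemin replicate 1.

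Outside the 9, 34 other lncRNAs with a literature of their own were looked up, and 18 had enough counts to be tested. By edgeR 1 of them rose and 2 fell, a share near the 14.1% of all tested genes called in either direction. Among the tested genes typed lncRNA that share was 5.25%, and with 18 genes tested the comparison rests on few calls. DESeq2 called 1 higher and 1 lower, against 5.05% and 4.33% of the genes to which it gave an adjusted p. DANCR, studied for keeping cells undifferentiated, had 423 and 406 counts in untreated cells and 546 and 630 after hemin, a log2 fold change of 0.50 with an edgeR adjusted p of 0.00168, and it was also called by limma on log2 TPM. UCA1 had 514 and 537 counts against 337 and 383, and fell by 0.55 on the log2 scale with an edgeR adjusted p of 0.00198. CYTOR fell by 0.19 with an edgeR adjusted p of 0.0397, a call lost with each of the 4 libraries left out in turn and reversed in sign, at 0.03, on log2 TPM.

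The genes whose profile over the 4 libraries was most like that of MEG3 were found by the Euclidean distance between log2 CPM values centred per gene. They were ACKR2, a chemokine-scavenging receptor gene, at 0.0321, ENSG00000233461 at 0.0375 and DNASE1L1, a gene of the DNase I family, at 0.0459, where the median distance over all tested genes was 0.668. ACKR2 had 42, 35, 25 and 25 counts in untreated replicates 1 and 2 and hemin replicates 1 and 2. DNASE1L1 fell by 0.65 on the log2 scale with an edgeR adjusted p of 0.0205, and the other pair did not pass. With 4 libraries, such likeness is a description of the counts.

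RefSeq gave promoters of 300 bases, 250 before and 50 after the start, for 6 of the 9 genes. Where a gene had several entries, only the entry with the lowest coordinate was searched, and for MALAT1 the entry with the highest. The RefSeq start of MEG3 lies inside the gene span of GENCODE given above, so the starts of the annotations differ. Those of MEG3 and NORAD are shown, since MEG3 changed the most and NORAD alone rose. They are read in the direction of transcription from GRCh38.p14, at chr14:100825858-100826157 on the plus strand for MEG3 and at chr20:36050911-36051210 on the minus strand for NORAD, with the words found in capitals.
MEG3 promoter: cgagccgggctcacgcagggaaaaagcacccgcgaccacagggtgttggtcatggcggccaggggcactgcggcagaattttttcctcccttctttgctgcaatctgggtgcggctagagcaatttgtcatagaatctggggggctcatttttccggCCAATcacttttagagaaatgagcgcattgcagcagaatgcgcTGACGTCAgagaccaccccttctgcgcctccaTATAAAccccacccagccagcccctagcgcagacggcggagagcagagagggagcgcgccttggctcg
NORAD promoter: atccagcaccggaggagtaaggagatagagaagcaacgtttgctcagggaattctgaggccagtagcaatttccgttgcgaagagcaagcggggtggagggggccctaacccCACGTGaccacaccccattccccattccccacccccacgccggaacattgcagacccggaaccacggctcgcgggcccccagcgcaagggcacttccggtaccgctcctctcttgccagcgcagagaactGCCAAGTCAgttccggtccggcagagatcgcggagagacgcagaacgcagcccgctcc
The words were searched on both strands and were chosen after the sequences had been seen. The MEG3 promoter held TGACGTCA, the cyclic AMP response element, which 1.9% of 27305 promoters hold, together with CCAAT (35.6% of promoters) and TATAAA (12.1%). The NORAD promoter held the E-box CACGTG (7.3%) and TGACNNNGC, a core of the antioxidant response element (13.5%), on the opposite strand. CACGTG and CCAAT were not particular to the lncRNAs that changed, since both were also in the promoters of OIP5-AS1 and TUG1, which did not pass. TATAAA was also in the promoter of MALAT1, which fell. GGGCGG, the GC box, was in the promoters of OIP5-AS1 and TUG1 and in 43.8% of all promoters. The word GATAA, the core of the sites of the GATA factors, was in none of the 6 promoters and in 23.4% of all promoters, which says only that these letters are not in these windows. The matches describe the sequence, and no factor binding was measured in these libraries.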

How the data were processed

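K562 poly(A)+ transcripts were read from libraries of 50-base reads. Per the study's methods and the submitters' processing notes, the authors trimmed the reads (Trimmomatic 0.39) and quantified each library with RSEM 1.3.1 and STAR 2.7.5c on the Ensembl annotation of GRCh38. The deposited expected counts are RSEM's estimated reads per gene, not normalized, and the deposited posterior mean counts are a second estimate of the same. The deposited TPM and FPKM are levels scaled for effective length by the authors, and the deposited lengths are in bases. The deposited posterior SD of the count, a score that RSEM gives in reads, describes how reads were divided between genes. The authors' averaged TPM and FPKM tables were used to match symbols. The RSEM options given in the study's methods name no strand setting.

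Expected counts were rounded, filtered with filterByExpr (14458 genes kept), given TMM factors and fitted with edgeR 4.0.16 (R 4.3.3), condition being the only term. Benjamini-Hochberg adjusted p-values have a threshold of 0.05, and intervals of fold changes are at 95%. limma 3.58.1 and DESeq2 1.42.0 served as alternatives, next to RLE factors, library size only, no filter, a stricter minimum of 20 counts throughout either condition, a replicate block, each library left out, posterior mean counts and a loess correction for length (span 0.4). On simulated counts, 27 of 67 genes changed 1.2-fold, 62 of 67 changed 1.5-fold and 66 of 66 changed 2-fold were called in the same comparison over 14148 genes, with 11 false calls among 13948. The changed genes were drawn from those with a mean count of at least 100, so the recovery does not cover genes with fewer counts. The counts were drawn with the spread that edgeR fitted, without further variation of single genes. Coordinates come from GENCODE 44, to which 99.84% of gene IDs matched. The binomial interval of the H19 ratio and the floor on counts cover counting error only. The intervals of fold changes come from the SE of the edgeR fit, which includes the spread between libraries. The lncRNAs and the gene lists were chosen with earlier results of these data known. Named genes are all 9 lncRNAs, the called genes of each list (the lowest and highest changes where more than 4 were called), called or overlapping neighbours within 100 kb, and the 3 genes most like the called lncRNA with the smallest p. Some genes that this rule names are not reported here.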

Additional observations from a re-analysis of the deposited data

How the results depend on the processing

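MEG3, MALAT1 and NORAD kept their direction under all 14 alternatives. On log2 TPM with limma, where few genes of any kind passed (14 higher and 33 lower with a pseudocount of 1, 15 and 34 with 0.1), 0 lncRNAs were called in either direction although 1 was higher and 2 lower at an unadjusted p under 0.05. The values there were -0.24 for MALAT1, 0.19 for NORAD, and -0.64 and -0.65 for MEG3, while PVT1 turned to 0.10 and OIP5-AS1 to 0.16 and 0.17, the effective length being shorter after hemin for both. CYTOR turned to 0.03. On this scale 1 gene of the lists was called higher and 0 lower, and 0 neighbours. With library size only, OIP5-AS1 passed at -0.19.

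Leaving out each library in turn gave 469 to 934 genes higher and 512 to 884 lower, 0 to 1 lncRNA higher and 1 to 3 lower, 24 to 36 list genes higher and 1 to 4 lower, and 1 to 3 neighbours higher and 0 to 2 lower. The fold change on the log2 scale ran from -0.30 to -0.15 for MALAT1, from 0.20 to 0.25 for NORAD, from -0.0093 to 0.19 for NEAT1 and from -0.38 to 0.073 for KCNQ1OT1. Where 1 library remained in a condition, its spread was taken from the other condition.

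DESeq2 called 589 genes higher and 505 lower, 2 list genes lower, and 1 neighbour higher and 0 lower. List genes called lower numbered 8 with library size only, at least 20 counts or posterior mean counts. Neighbours called higher numbered 1 with library size only, with the length correction and with the replicate block, and 5 without a filter. Neighbours called lower numbered 3 without a filter or with at least 20 counts and 2 with library size only or posterior mean counts. With posterior mean TPM, 5 lncRNAs in untreated cells and 3 after hemin took another place in the order of levels, and with FPKM none did.

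Replicate numbers did not pair the samples by the labels, and the correlation of same-numbered deviations was 0.004731. With the replicate number as a block, 855 genes were higher and 886 lower, and the log2 fold changes of MALAT1, NORAD and MEG3 were -0.23, 0.22 and -0.61, with their calls kept. The depth limits H19, for which the interval of the ratio of 20 to 10 counts includes equal levels.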
